A study of Mus musculus with 4 samples.

Results

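Collagens are the main structural proteins of the extracellular matrix, and the 40 collagen genes on a mouse whole-genome array were compared between 3 neural progenitor cell (NPC) lines and a pool of tissue RNA called Mixture. The genes were chosen as those whose probe name in the files is Col, a type number, the letter a and a chain number. This rule gave 78 non-control probes (96 spots) of 41155 probes, and 40 genes of 27657 genes or transcripts. All 40 passed the filter for testing, a signal well above background on at least 1 array, which 19819 genes passed. The rule missed 4 collagen probes filed under an older name, and 3 collagen genes are represented only by such probes and were not members.

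Each line came from a different embryonic stem (ES) cell line, and each was hybridised once. NS21 was derived from ES line 21 and has the strain label 129/Ola, NS195R was derived from ES line 195R with the strain label 129/Sv, and NSEB5-2C was derived from ES line EB5 with the label 129/Ola. Mixture, on 1 array, pooled equal masses of RNA from Swiss Webster lung, liver, spleen, thymus, kidney and heart, and from day 11 embryo. All 4 samples were total RNA labelled with Cy3 from 0.25 ug on 1-colour arrays. The pool holds no adult brain. No line shares the strain of the pool, so cell type and strain cannot be told apart. The lines are 3 separate cultures of different origin, so that the spread between them holds line differences together with technical error.

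Collagen chains wind around one another into a stiff helix, which the cell secretes and assembles outside. Fibrillar collagens form the cables of skin, bone, cartilage and vessel walls. Collagen IV forms the sheet-like network of basement membranes, which in the brain lie under the pia and around blood vessels. The other types decorate fibrils, anchor epithelia, span membranes or form nets of their own. The study compared the lines with Mixture to find transcription factors of NPCs.

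Signals well above background covered between 23983 and 25690 of 43379 non-control spots in the NPC lines and 26840 in Mixture, with 0 saturated spots, and the number of arrays limits the precision. One label of Mixture names a doxycycline-treated NPC line. Of 14 pooled-tissue markers, 2 were well above background in NS21, 3 in NS195R, 1 in NSEB5-2C and 14 in Mixture, and the sample is called Mixture here as in its title. Of the 10 neural progenitor markers, 7 were well above background in NS21, 10 in NS195R, 8 in NSEB5-2C and 9 in Mixture, with summed signals of 141, 292, 144 and 40.7. Vim made up 118 of the sum in NS21, 86.8 in NS195R, 127 in NSEB5-2C and 31.2 in Mixture, and Fabp7 made up 146 in NS195R. All 3 lines lay above Mixture for 4 of the 10 and below it for 1, set beside 43% and 28.8% of all tested genes. Sox2, a neural stem cell transcription factor, was not well above background in NS21, and Fabp7 and Hes5, genes of radial glia and Notch signalling, were not in NS21 or NSEB5-2C.

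A signal below is a processed signal in multiples of its own array's percentile 75, and it is compared between arrays for 1 probe, never between probes. Over the 12728 genes measured on all arrays, the median log2 ratio of the NPC lines to Mixture was 0.71, so that a ratio of 0 lies below the middle of the genes. The median was -1.35 for the 21 collagens measured on all arrays. In bulk RNA, fewer cells of a type and less RNA per cell cannot be told apart.

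Promoter sequences are shown for 5 collagens that the results turn on: Col1a2 and the Col8 genes, with differences between lines of 124-fold or more, and Col4a5 and Col4a6, whose starts face each other on chromosome X, 1343 bases apart. Col9a3, with lines at least 170-fold apart, is not shown because it is not among the 32 collagens with a RefSeq promoter here. Each sequence is the 150 bases upstream of the RefSeq start in GRCm38.p6, written 5′ to 3′ on the gene's strand. Capitals mark a CCAAT box (CCAAT) or a GC box (GGGCGG, or CCGCCC where it lies on the other strand).
Col1a2, chr6:4505468-4505617, plus strand: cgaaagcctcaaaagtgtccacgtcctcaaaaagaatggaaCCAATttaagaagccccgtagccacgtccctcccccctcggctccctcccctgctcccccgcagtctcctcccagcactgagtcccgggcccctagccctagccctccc
Col4a5, chrX:141475269-141475418, plus strand: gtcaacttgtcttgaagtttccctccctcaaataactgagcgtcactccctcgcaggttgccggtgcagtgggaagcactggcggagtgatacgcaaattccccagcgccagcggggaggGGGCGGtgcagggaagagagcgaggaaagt
Col4a6, chrX:141474077-141474226, minus strand: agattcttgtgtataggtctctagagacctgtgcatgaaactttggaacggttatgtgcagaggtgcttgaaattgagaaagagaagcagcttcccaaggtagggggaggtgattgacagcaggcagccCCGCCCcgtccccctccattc
Col8a1, chr16:57754738-57754887, minus strand: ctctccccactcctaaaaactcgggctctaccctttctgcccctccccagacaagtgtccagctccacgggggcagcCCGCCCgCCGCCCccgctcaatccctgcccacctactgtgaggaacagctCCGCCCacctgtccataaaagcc
Col8a2, chr4:126286644-126286793, plus strand: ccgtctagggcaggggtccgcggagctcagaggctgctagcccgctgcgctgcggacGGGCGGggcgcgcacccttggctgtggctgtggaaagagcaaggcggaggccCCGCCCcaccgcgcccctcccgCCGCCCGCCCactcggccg

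The Col1a2 window held a CCAAT box that began 109 bases upstream of the start. Both Col8 windows were dense in GC boxes, 3 in Col8a1 and 4 in Col8a2, of which the last 2 of Col8a2 overlap. Col4a5 and Col4a6 each held 1 GC box close to the start, at 30 and 21 bases. Over the longer window of 250 bases, read on both strands, 18 of the 32 collagens with a RefSeq promoter (56.2%) held a GC box, against 32.9% of 27025 genes. A CCAAT box was found in 11 collagens (34.4%), against 34.5% of all genes, and a TATA box (TATAAA) in 5 (15.6%), against 13%. The median GC content of the window was 60% for the collagens and 52% for all genes. A match describes the letters only, and whether any factor bound there was not measured.

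All 3 lines lay below Mixture for 7 of 11 fibrillar, 3 of 3 type VI, 5 of 9 fibril-associated and 2 of 6 basement membrane genes, set beside 28.8% of all tested genes. With arrays scaled on their medians, these counts were 4, 2, 2 and 1, and with quantile scaling 7, 3, 3 and 3, and differences between the classes were not tested. For the main basement membrane chains, Col4a1 and Col4a2, the signal in Mixture lay within the range of the lines. Of the 40 genes, 26 were well above background in NS21 (65%), 35 in NS195R (87.5%), 28 in NSEB5-2C (70%) and 37 in Mixture (92.5%). The shares of all tested genes were 77.6% in NS21, 80.5% in NS195R, 75.4% in NSEB5-2C and 86.6% in Mixture. Thus NS21 detected the smallest share of the collagens, below its share of all genes, and NS195R a share above its share of all genes.

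With limma over all tested genes, 3 collagens were lower in the NPC lines at an adjusted p under 0.05, Col4a3, Col10a1 and Col14a1, and 0 were higher. No line was well above background for Col4a3 or Col10a1, so that their p-values rest on no measured spread between lines. Of all tested genes, 8.91% were lower and 0.944% higher, so that the members' share of 7.5% lies near the background. At an unadjusted p under 0.05, 7 collagens were lower, against 15.4% of all genes, and 0 were higher, against 15.6%. Leaving out any 1 line left 0 of the 3 calls. Such fits hold fewer arrays, and the share of all tested genes that kept a call in them is not given here. With 1 line left out, the log2 ratio of Col4a3 stayed between -5.90 and -5.83. No line was well above background for it, so that this narrow range does not test the size. With normexp the ratio was -1.38 (limma adjusted p = 0.0322). By size alone, 22 of 40 collagens lay below Mixture in all 3 lines, against 28.8% of all tested genes. With arrays scaled on their medians 14 did, against 21.2%. For 1 gene, Col25a1, all 3 lines lay above Mixture, against 43% of all tested genes, and of these arrays NS21 and Mixture were not well above background. That count was 3 with normexp and with quantile scaling and 4 with median scaling, against 47.9%, 48.2% and 58.9% of all tested genes. The median log2 ratio was -1.62 over the 40 collagens and 0.44 over all tested genes. By line, collagens had a median of -2.98 in NS21, -0.83 in NS195R and -1.59 in the NSEB5-2C line, with dim signals taken as read. Over all tested genes these medians were 0.40, 0.44 and 0.23. Over the 21 collagens measured on all arrays they were -1.82, -0.83 and -0.93, against 0.78, 0.69 and 0.69 for all genes measured there.

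Among the 11 fibrillar genes, all were well above background in NS195R and Mixture, 10 in NSEB5-2C and 9 in NS21, and their median log2 ratio was -1.74. With limma, 0 passed at an adjusted p under 0.05. At an unadjusted p under 0.05, 2 of the 11, Col1a1 and Col2a1, were lower, set beside 15.4% of all tested genes. The 2 genes of type I collagen, the main collagen of bone, skin and tendon, were below Mixture in every line. Col1a1 gave signals of 1.57 in NS21, 4.47 in NS195R, 5.16 in NSEB5-2C, against 64.8 in Mixture. Every line lay at least 12.6-fold below the pool, and the log2 ratio was -4.29 (SE 0.90, limma adjusted p = 0.0885). With the mean of its probes in place of the brightest, the adjusted p was 0.0497. Col1a2 gave 0.0886 in NS21, 3.84 in NS195R, 26.0 in NSEB5-2C, against 94.4 in Mixture. The lines did not move together: NSEB5-2C lay 294-fold above NS21 and 6.76-fold above NS195R, so that the log2 ratio of -5.51 had an SE of 3.75 (limma adjusted p = 0.40).

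Col3a1, the collagen of elastic tissues and vessel walls, varied least between the lines among the 9 fibrillar genes measured on all arrays. Its signals were 11.1 in NS21, 21.0 in NS195R, 19.7 in NSEB5-2C, against 37.4 in Mixture. The lines lay within 1.88-fold of each other and below the pool, though not all 3 did with median scaling (log2 ratio -1.17, SE 0.56, limma adjusted p = 0.265). Col5a2, its neighbour on chromosome 1, encodes a chain that co-assembles with type I fibrils. It gave 0.0460 in NS21, 0.211 in NS195R, 1.94 in NSEB5-2C, against 1.72 in Mixture. Only NSEB5-2C reached the level of the pool, 42.1-fold above NS21 and 9.18-fold above NS195R. The 2 neighbours therefore differed in pattern: the spread of Col3a1 over the lines was small and that of Col5a2 large.

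Col5a1, whose chain starts type I fibril assembly, stayed near Mixture, with 5.34 in NS21, 4.22 in NS195R, 11.8 in NSEB5-2C and 7.15 in Mixture (log2 ratio -0.15, SE 0.77). That ratio was 0.60 with median scaling. Col5a3, a chain of type V collagen, was high in NS195R only among the lines, at 1.19, against 0.241 in NS21, 0.237 in NSEB5-2C and 1.12 in Mixture. Col11a1 encodes a chain of the type XI collagen of cartilage fibrils, and it was low in NS21 alone. Its signals were 0.187 in NS21, 2.44 in NS195R, 1.52 in NSEB5-2C, against 2.25 in Mixture, a 13.0-fold gap between NS195R and NS21. Col11a2, another type XI chain, ran the other way among the lines, with 0.251 in NS21, 0.146 in NS195R, 0.0576 in NSEB5-2C, against 0.883 in Mixture. Its second probe was well above background in NS195R alone, at 0.0336, so that the order of the lines differed between the probes.

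Col2a1, the main fibrillar collagen of cartilage, was lower in every line than in the pool, at 0.629 in NS21, 0.428 in NS195R, 1.46 in NSEB5-2C, against 5.40 in Mixture. Its log2 ratio was -2.88 (SE 0.87, limma adjusted p = 0.143). Col24a1 and Col27a1, fibrillar collagens of bone and cartilage, were dim on all arrays. Col24a1 was well above background only in NS195R at 0.0433, among the lines, and in Mixture at 0.0615. Col27a1 gave 0.240 in NS195R and 0.0567 in NSEB5-2C, against 0.265 in Mixture, with NS21 not well above background. Of the 7 cartilage markers, 3 were well above background in NS21, 2 in NS195R, 1 in NSEB5-2C and 6 in Mixture. Their summed signals were 2.41, 0.131, 0.242 and 2.32, of which Hapln1 made up 1.84 in NS21 and 0.129 in Mixture. Their part in these results was not tested.

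**Figure D1:**
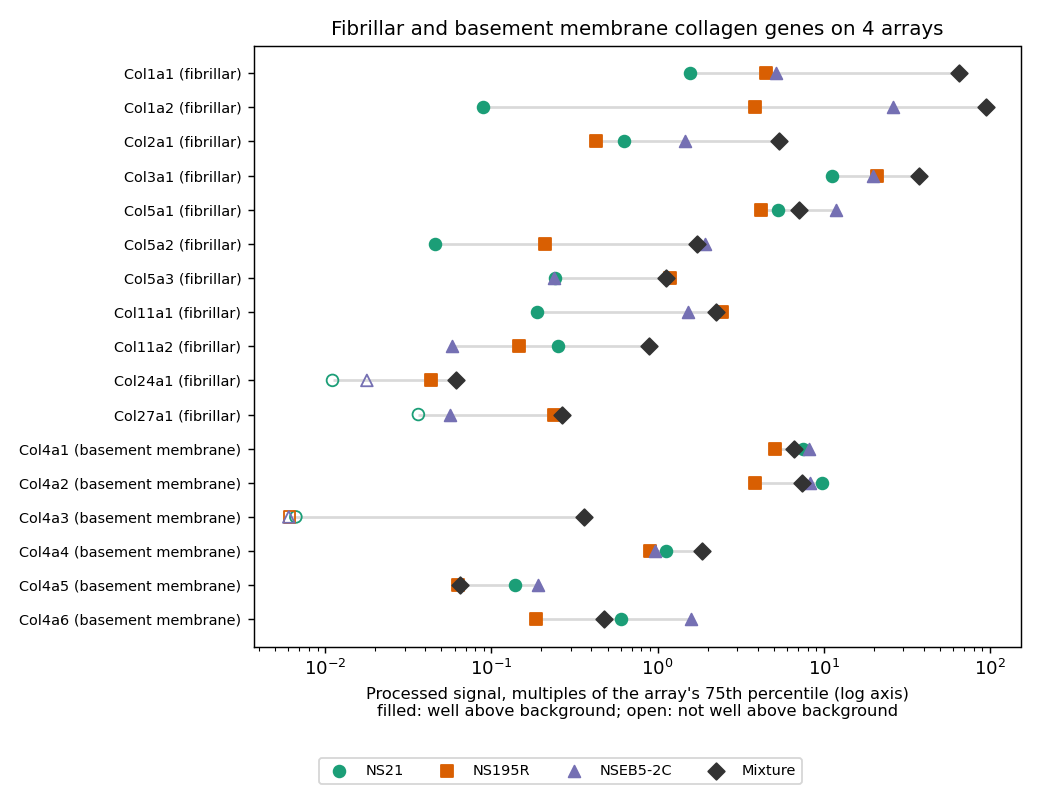
Processed signal of the 11 fibrillar and 6 basement membrane collagen genes on each array, on a log axis in multiples of the array's percentile 75, with 1 marker for each NPC line and for Mixture. Open markers are not well above background. Col1a1, Col1a2, Col2a1 and Col11a2 lie below Mixture in all 3 lines, Col4a1 and Col4a2 lie within 2.50-fold across the lines, and Col1a2 and Col5a2 span 294-fold and 42.1-fold.

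The 6 basement membrane genes are arranged as 3 pairs of neighbours that face each other in the genome. Their median log2 ratio was -0.04 (0.71 with median scaling), with 5 genes well above background in each line and 6 in Mixture. Col4a1 and Col4a2, neighbours on chromosome 8, encode the chains of the collagen IV found in nearly all basement membranes. Col4a1 gave 7.46 in NS21, 5.08 in NS195R, 8.19 in NSEB5-2C, against 6.59 in Mixture (log2 ratio 0.04, SE 0.47, limma adjusted p = 0.963). Col4a2 gave 9.70, 3.88 and 8.29 in the same lines, against 7.42 in Mixture (log2 ratio -0.13, SE 0.72, limma adjusted p = 0.917). In both genes NS195R was the lowest array and Mixture lay between the lines. The sign of either ratio turned under other scalings: that of Col4a1 was -0.27 with quantile scaling, and that of Col4a2 was 0.62 with median scaling.

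Col4a3 and Col4a4, neighbours on chromosome 1, encode chains of the specialised collagen IV of the glomerulus and the lung alveolus. Col4a3 was not well above background in any line (0.00666 in NS21, 0.00608 in NS195R and 0.00604 in the NSEB5-2C line), against 0.362 in Mixture. It was at least 12.8-fold lower in the lines (limma adjusted p = 0.00983, all 3 lines below), and that p rests on line signals not well above background. A second probe measured in Mixture was at least 4.55-fold lower, and the third probe was not well above background anywhere. Col4a4 gave 1.12 in NS21, 0.903 in NS195R, 0.963 in NSEB5-2C, against 1.85 in Mixture (log2 ratio -0.90, SE 0.36, limma adjusted p = 0.209). Its 2 probes disagreed in size: the dimmer one was not well above background in any line and read 1.23 in Mixture, at least 43.6-fold lower in the lines. With the mean of both probes, Col4a4 passed the test (log2 ratio -3.94, limma adjusted p = 0.0167).

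Col4a5 and Col4a6 are the head-to-head pair on chromosome X whose promoters are printed above, and they encode the remaining collagen IV chains. Col4a5 gave 0.138 in NS21, 0.0627 in NS195R, 0.191 in NSEB5-2C, against 0.0647 in Mixture. Col4a6 gave 0.601 in NS21, 0.186 in NS195R, 1.58 in NSEB5-2C, against 0.475 in Mixture. Both genes ranked the arrays alike among the lines, NSEB5-2C above NS21 above NS195R. NS195R was 3.05-fold below NSEB5-2C for Col4a5 and 8.49-fold below it for Col4a6. A second Col4a6 probe spread less, with 0.134 in NS21, 0.110 in NS195R, 0.159 in NSEB5-2C, against 0.194 in Mixture, the highest array. The log2 ratios were 0.87 (SE 0.81) and 0.24 (SE 1.42), and neither passed the limma test, with adjusted p of 0.530 and 0.923.

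Endothelial cells also make collagen IV, and 4 of 8 endothelial markers, Cdh5, Pecam1, Tek and Tie1, had no line well above background. Of the 8, 2 were well above background in NS21, 3 in NS195R, 3 in NSEB5-2C and 8 in Mixture, with summed signals of 1.33, 16.6, 2.25 and 46.0. A sum over probes follows its brightest probe, and Emcn made up 16.3 of the NS195R sum. With limma, 5 were lower in the lines, set beside 8.91% of all tested genes. Smooth muscle and pericyte markers were well above background for 7 of 9 genes in NS21, 6 in NS195R, 5 in NSEB5-2C and 9 in Mixture. Their summed signals were 59.6, 15.3, 33.4 and 71.7, and 3 were lower in the lines with limma.

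Type VI collagen, which forms beaded filaments around cells, was most abundant in NS195R among the lines for each of its 3 genes. All 3 were well above background on all arrays and lay below Mixture in every line, with a median log2 ratio of -2.59. With limma, 0 passed at an adjusted or an unadjusted p under 0.05. Col6a1 gave 0.491 in NS21, 2.37 in NS195R, 1.52 in NSEB5-2C, against 3.82 in Mixture. Col6a2, its neighbour on chromosome 10, gave 0.136, 0.874 and 0.118 in those lines, against 1.45 in Mixture. The second Col6a2 probe gave 0.0335 in NS21, 0.123 in NS195R, 0.0863 in NSEB5-2C, against 0.130 in Mixture. The probes disagreed on NSEB5-2C, which lay near NS21 on the brighter probe and nearer to NS195R on the other. Col6a3, the longest chain, gave 0.860 in NS21, 5.93 in NS195R, 0.109 in NSEB5-2C, against 6.90 in Mixture. NS195R almost reached the pool and lay 54.3-fold above NSEB5-2C (log2 ratio -3.07, SE 2.60, limma adjusted p = 0.490).

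Col7a1 and the Col8 genes were high in NSEB5-2C and low in NS195R. Col7a1 encodes the collagen of anchoring fibrils, which fasten skin epithelium to the dermis. Its signals were 12.3 in NS21, 0.564 in NS195R, 63.7 in NSEB5-2C, against 2.32 in Mixture. NSEB5-2C lay 27.5-fold and NS21 5.30-fold above the pool, while NS195R lay 4.11-fold below it, and the lines spanned 113-fold. Col8a1 and Col8a2 encode the chains of the hexagonal net of Descemet's membrane in the cornea, and they lie on different chromosomes, 16 and 4. Col8a1 gave 0.488 in NS21 and 10.6 in NSEB5-2C, against 5.23 in Mixture, and was not well above background in NS195R. Col8a2 gave 0.106 in NS21 and 3.41 in NSEB5-2C, against 0.487 in Mixture, and again was not well above background in NS195R. NSEB5-2C exceeded NS195R at least 388-fold for Col8a1 and at least 124-fold for Col8a2. The second Col8a1 probe was also brightest in NSEB5-2C (0.391, against 0.147 in Mixture). Col7a1, Col8a2 and the fibril-associated Col9a3 were the 3 collagens at least 4-fold above the pool in some line and as far below it in another, against 1.26% of all tested genes. These spreads gave SEs of 3.11, 4.26 and 3.27 for Col7a1, Col8a1 and Col8a2, and none passed the limma test (adjusted p = 0.747, 0.619 and 0.824).

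Col10a1, a marker of hypertrophic cartilage, is the remaining hexagonal network gene and was one of the 3 genes lower in the lines. It was not well above background in any line (0.00649 in NS21, 0.00621 in NS195R and 0.00710 in the NSEB5-2C line), against 0.110 in Mixture. It was at least 3.89-fold lower, with a limma adjusted p of 0.0167 that rests on line signals not well above background. That p was 0.121 with normexp background correction and 0.0551 with median scaling.

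Of the 9 fibril-associated genes, all were well above background in NS195R, 4 in NS21, 4 in NSEB5-2C and 8 in Mixture. Type IX collagen coats cartilage fibrils, and its 3 genes were all highest in NS195R among the lines. Col9a1 was well above background only in NS195R among the lines, at 0.234, against 0.355 in Mixture. Col9a2 gave 0.0947 in NS21, 0.589 in NS195R, 0.0675 in NSEB5-2C, against 0.767 in Mixture. Col9a3 alone of these exceeded the pool: it gave 0.0388 in NS21 and 5.08 in NS195R, was not well above background in NSEB5-2C, and read 0.364 in Mixture. NS195R was 13.9-fold above Mixture, 131-fold above NS21 and at least 170-fold above NSEB5-2C for Col9a3. Its log2 ratio of -1.01 (SE 3.75) describes no single line, and it was 0.29 with normexp.

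Col14a1, a fibril-associated collagen of dermis and tendon, was lower in the lines with limma. It gave 0.0393 in NS21, 0.0780 in NS195R and 0.0201, not well above background, in NSEB5-2C, against 3.77 in Mixture. The lines lay 95.9-fold, 48.3-fold and at least 138-fold below the pool (log2 ratio -6.58, SE 0.94, limma adjusted p = 0.0447). The adjusted p was 0.0563 without the filter on dim genes and 0.0531 with the mean of probes. Col12a1, a related collagen of tendon and periosteum, showed another pattern: 0.0355 in NS195R and 0.260 in NSEB5-2C, against 0.0626 in Mixture, with NS21 not well above background. NSEB5-2C was 7.33-fold above NS195R. Col22a1, a collagen of tissue junctions, gave 0.255 in NS195R and 0.260 in NSEB5-2C, against 0.264 in Mixture, with NS21 not well above background. Its other probe gave 0.156 in NS195R and 0.0445 in NSEB5-2C, against 0.992 in Mixture. The brighter probe thus put these lines level with the pool and the other put them below it.

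Of the remaining fibril-associated genes, Col16a1 was measured on every array, with 2.82 in NS21, 4.0 in NS195R, 10.1 in NSEB5-2C, against 5.01 in Mixture. Col19a1 and Col20a1 were well above background only in NS195R among the lines, at 0.0717 and 0.0994, and Mixture read 0.102 for Col20a1 and was not well above background for Col19a1. Col19a1 is the chromosomal neighbour of Col9a1, and both were detected in NS195R alone of the lines. A second Col19a1 probe was well above background in Mixture alone, so that its probes disagree on whether the gene is measured there.

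The 4 transmembrane collagens, which are anchored in the cell membrane, had a median log2 ratio of -3.86 (-1.37 with normexp). With limma, 0 passed at an adjusted p under 0.05. At an unadjusted p under 0.05, 2 were lower, set beside 15.4% of all tested genes. Col13a1, found at neuromuscular junctions, gave 0.0722 in NS195R and 0.0343 in NSEB5-2C, against 0.808 in Mixture, and stayed too dim in NS21 to be well above background (log2 ratio -4.42, SE 0.85, limma adjusted p = 0.0784). Col17a1, the collagen of epithelial hemidesmosomes, was not well above background in any line, against 0.681 in Mixture, and at least 24.1-fold lower in the lines (limma adjusted p = 0.0786). Both passed the test with normexp (adjusted p = 0.0170 and 0.0153) and with the mean of probes (0.0496 and 0.0317). Col23a1 gave 0.0392 in NS21 and 0.162 in NS195R, was not well above background in NSEB5-2C, and read 0.384 in Mixture. Col25a1, a neuronal collagen whose protein is found in amyloid plaques in human brain, stood opposite to the others. It gave 0.0485 in NS195R and 0.127 in the NSEB5-2C line while NS21 and Mixture were not well above background. NS195R was at least 1.55-fold and NSEB5-2C at least 4.06-fold above the pool, and NS21 has no bound (log2 ratio 1.95, SE 1.23, limma adjusted p = 0.369).

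The multiplexins, collagens of basement membrane zones, include Col18a1, the source of the fragment endostatin. Col18a1 gave 39.7 in NS21, 5.30 in NS195R, 68.6 in NSEB5-2C, against 28.1 in Mixture. NSEB5-2C was 12.9-fold and NS21 7.49-fold above NS195R, which alone lay below the pool. Its second probe ran the same way, with 16.5, 1.94 and 26.4 in those lines and 9.96 in Mixture. Col15a1 was opposite among the lines: it was well above background in NS195R alone, at 0.246, against 0.545 in Mixture. Col28a1, which belongs to no class used here, was well above background on the NS195R array alone, at 0.0914. Col4a3, Col10a1 and Col17a1 were measured in Mixture and no line, and Col19a1, Col25a1 and Col28a1 in a line and not in Mixture, against 10.3% and 13.4% of all tested genes. These counts use the brightest probe of a gene, and another probe of Col19a1 was well above background in Mixture.

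**Figure D2:**
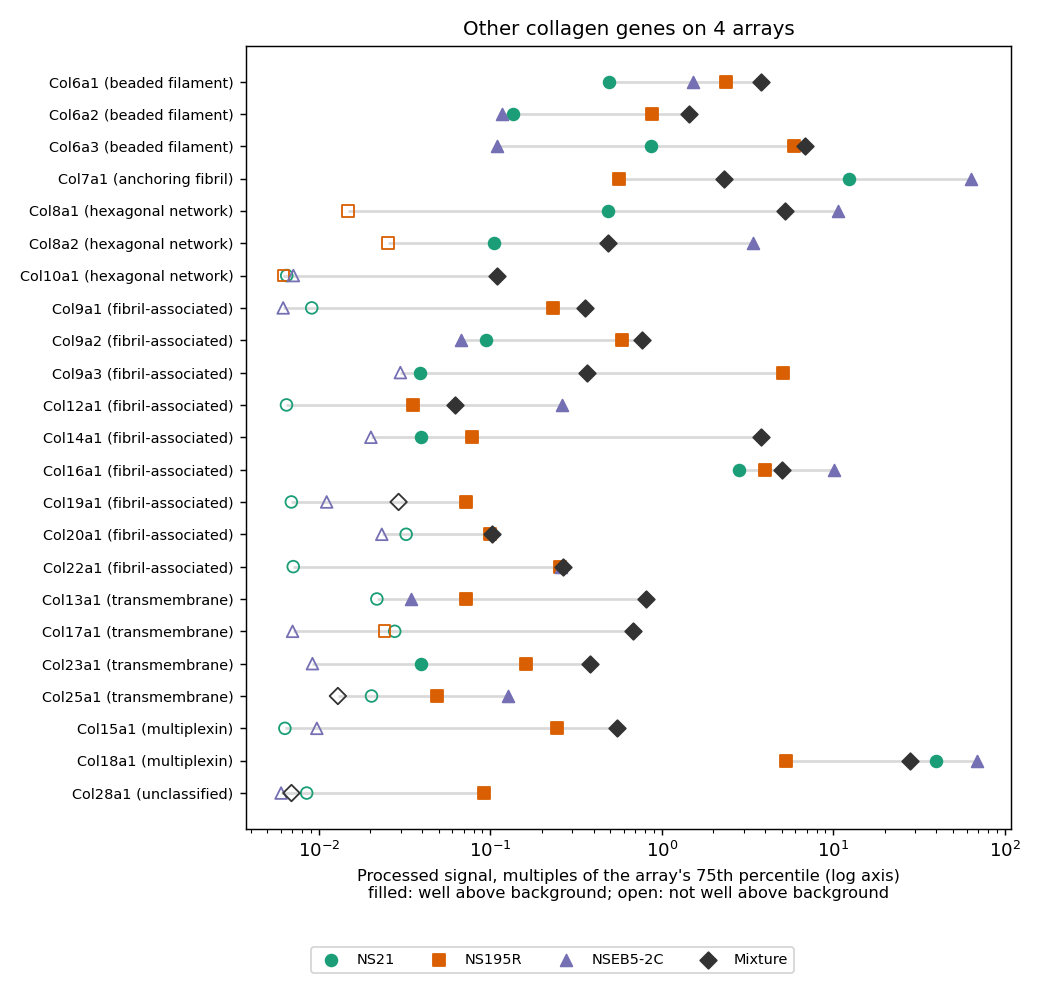
Processed signal of the other 23 collagen genes on each array, on a log axis in multiples of the array's percentile 75, with 1 marker for each NPC line and for Mixture. Open markers are not well above background. Col7a1, Col8a1, Col8a2 and Col18a1 run from NS195R at the low end to NSEB5-2C at the high end, while the 3 Col6 and 3 Col9 genes are highest in NS195R among the lines.

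Large gaps between lines were frequent among the collagens. The highest and lowest line were at least 4-fold apart for 22 collagens (55%), against 20.4% of all tested genes, with a line not well above background set at the dimmest measurable signal of its array. With normexp the numbers were 9 (22.5%) and 8.28%. The median log2 gap between the highest and lowest line was 2.32 for collagens and 0.97 for all tested genes. By pair of lines, 42.5% of collagens were at least 4-fold apart between NS21 and NS195R, against 13.2% of all tested genes. The shares were 27.5% and 9.62% between NS21 and NSEB5-2C, and 42.5% and 13.1% between NS195R and NSEB5-2C. With 1 array a line, none of these differences has a test.

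The direction differed by line. NS195R was at least 2-fold above both other lines for 14 collagens, against 11.9% of tested genes, and at least 2-fold below both for 7, against 6.41%. NSEB5-2C was above both for 11, against 6.54%, and below both for 3, against 7.42%. NS21 was above both for 0, against 8.12%, and below both for 8, against 4.81%. These counts take dim signals as read. With dim signals raised to the dimmest measurable signal of their array, NS195R was above both for 13, NS21 below both for 6 and NSEB5-2C below both for 2. The other counts stayed, and shares of all tested genes are not given for that setting. With normexp, NSEB5-2C was above both for 9 (2.97% of all tested genes) and NS195R for 5 (5.05%), so that the order of these lines turned. NS195R was then below both for 4 (3.24%) and NS21 for 4 (1.91%). The 14 genes high in NS195R were 3 fibrillar, 2 of type VI, 5 fibril-associated, 2 transmembrane, Col15a1 and Col28a1. The 7 low in NS195R were Col4a2, Col4a5, Col4a6, Col7a1, Col8a1, Col8a2 and Col18a1. The 11 high in NSEB5-2C were Col1a2, Col2a1, Col5a1, Col5a2, Col4a6, Col7a1, Col8a1, Col8a2, Col12a1, Col16a1 and Col25a1.

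**Figure D3:**
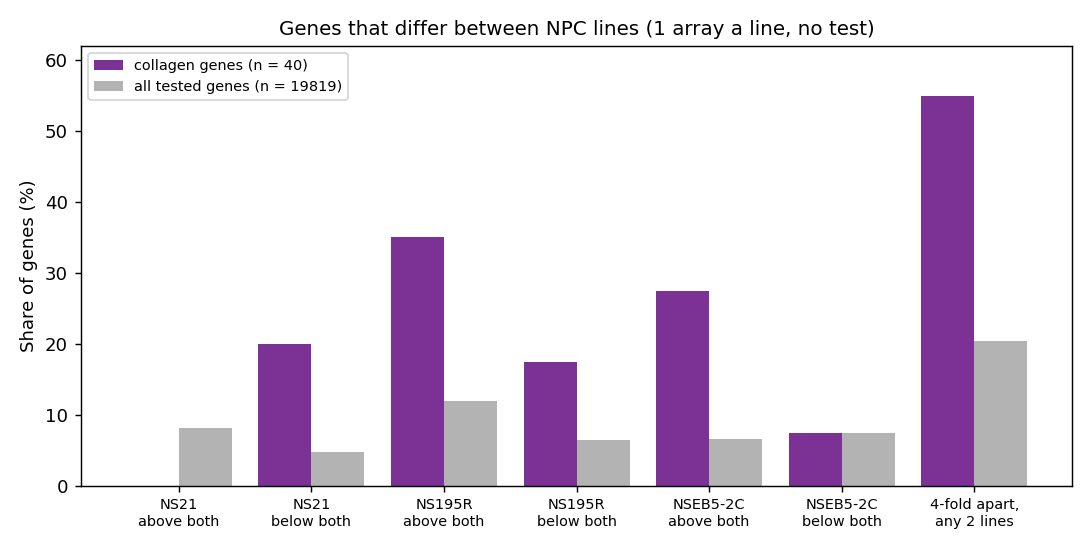
Share of the 40 collagen genes and of the 19819 tested genes, in percent, that lay at least 2-fold above or below both other NPC lines, and share at least 4-fold apart between the highest and lowest line, with 1 array a line and no test. Collagens reach 35% for NS195R above both, 27.5% for NSEB5-2C above both and 55% for the 4-fold gap, against 11.9%, 6.54% and 20.4% of all tested genes. With normexp, NS195R is above both for 5 collagens and NSEB5-2C for 9.

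Fibroblast-like mesenchyme is a main source of fibrillar collagen, and its markers also varied between lines. Of 12 such markers, 9 were well above background in NS21, 12 in NS195R, 7 in NSEB5-2C and 12 in Mixture, with summed signals of 8.60, 16.7, 29.5 and 55.4. Single genes dominated these sums: Thy1 made up 34.2 of that in Mixture and Prrx2 16.2 of that in NSEB5-2C. The sums therefore do not rank the arrays by mesenchyme content. In NSEB5-2C, the transcription factors Prrx1, Prrx2, Twist1 and Twist2 were the highest of the 3 lines, while Pdgfra, Fap, Tcf21, Meox1 and Postn were not well above background. With limma, 0 of the 12 were lower or higher at an adjusted p under 0.05. At an unadjusted p under 0.05, 2 were lower, set beside 15.4% of all tested genes. The part of these cells in the collagen values was not tested.

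Genes that make, cut, link and bind collagen are given by role. A list of 53 such genes had 52 on the array and 50 tested, of which 2 were lower with limma and 0 higher, set beside 8.91% and 0.944% of all tested genes. Of all tested genes, 43% lay above Mixture in all 3 lines and 28.8% below it. The modifying enzymes and chaperones act in the endoplasmic reticulum, where they hydroxylate and fold the chains. Of these 19 genes, 14 lay above Mixture in all 3 lines and 1 below, with a median log2 ratio of 1.19, set beside 0.44 for all tested genes. Other scalings gave 12 to 16 above. With limma, 0 of the 19 passed at an adjusted p under 0.05, and 5 were higher at an unadjusted p under 0.05, set beside 15.6% of all tested genes. Serpinh1, the collagen chaperone HSP47, gave 101 in NS21, 76.0 in NS195R, 59.1 in NSEB5-2C, against 24.3 in Mixture (log2 ratio 1.66, SE 0.48, limma adjusted p = 0.135); it was chosen after its values were seen. P4ha2, a prolyl hydroxylase subunit, followed the lines unevenly, with 4.01 in NS21, 0.170 in NS195R, 8.03 in NSEB5-2C, against 2.80 in Mixture. Colgalt2, a collagen galactosyltransferase, was the reverse, at 3.16 in NS195R and not well above background in the other lines, against 0.215 in Mixture. Fkbp10, a chaperone of procollagen, gave 50.3 in NS21, 11.5 in NS195R, 32.9 in NSEB5-2C, against 4.67 in Mixture.

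Enzymes that cut the propeptides and cross-link the fibrils had no common direction. Of 6 tested cleavage genes, 1 lay above Mixture in all lines and 2 below. With limma, 0 passed at an adjusted p under 0.05. At an unadjusted p under 0.05, 1 was higher, set beside 15.6% of all tested genes. Bmp1, the C-propeptide protease, was the one above, with 13.9 in NS21, 8.51 in NS195R, 13.8 in NSEB5-2C, against 1.40 in Mixture (log2 ratio 3.07, SE 0.49, limma adjusted p = 0.0578); it too was chosen after its values were seen. The adjusted p was 0.0401 with normexp, 0.0435 with quantile scaling and 0.0356 with an intensity trend. Adamts2, an N-propeptide protease, was far below the pool, with 0.0345 in NS21 and 0.665 in NS195R, not well above background in NSEB5-2C, and 5.75 in Mixture. Pcolce2, an enhancer of Bmp1, reached the pool in NSEB5-2C alone, at 3.51, against 0.241 in NS21, 0.249 in NS195R and 3.73 in Mixture. Adamts3, a related protease, was well above background in NS195R alone among the lines, at 0.127, against 0.0556 in Mixture. Of the 5 cross-linking enzymes, 4 were at least 4-fold apart between lines, set beside 20.4% of all tested genes. With limma, 0 of the 5 passed at an adjusted or an unadjusted p under 0.05. Loxl1 gave 0.439 in NS21, 1.41 in NS195R, 11.9 in NSEB5-2C, against 3.88 in Mixture, and Loxl2 gave 8.23, 1.02 and 5.46, against 4.55. The parent enzyme Lox gave 0.0506 in NS21 and 0.260 in NSEB5-2C, against 0.626 in Mixture, and was not well above background in NS195R.

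The receptors were mixed, with 3 of 9 tested genes above Mixture in all lines and 4 below. With limma, 0 passed at an adjusted p under 0.05. At an unadjusted p under 0.05, 1 was higher and 3 were lower, set beside 15.6% and 15.4% of all tested genes. Ddr2, a receptor tyrosine kinase for fibrillar collagen, was high in NSEB5-2C, at 6.38, against 0.254 in NS21, 0.795 in NS195R and 0.879 in Mixture. Among the collagen-binding integrins, Itga10 was well above background in NSEB5-2C alone, at 0.209, and Itga1 gave 0.0937 in NS21, 0.180 in NS195R, 0.489 in NSEB5-2C, against 1.01 in Mixture. Of these 3 genes, Ddr2 and Itga10 exceeded the pool in NSEB5-2C, while Itga1 was below it in every line.

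The fibril partners, mostly small leucine-rich proteoglycans that bind collagen fibrils, were the role group farthest below the pool. Of 11 genes, 9 lay below Mixture in all lines and 0 above, set beside 28.8% and 43% of all tested genes, with a median log2 ratio of -5.13 (-2.40 with normexp). The genes not below in all lines were Fn1 and Sparc. Fn1 gave 49.8 in NS21, 1.85 in NS195R, 21.2 in NSEB5-2C, against 4.68 in Mixture. Sparc gave 49.5, 39.8 and 34.2 in those lines, against 40.5 in Mixture. With limma, 2 partners were lower, set beside 8.91% of all tested genes. These were Omd, a proteoglycan of bone, at least 6.94-fold (limma adjusted p = 0.0117), and Tnxb, a tenascin of connective tissue, at least 98.8-fold (limma adjusted p = 0.0174). Omd did not pass with normexp, and neither gene passed when any 1 line was left out. Neither was well above background in a line, against 0.196 for Omd and 2.80 for Tnxb in Mixture. Both p-values thus rest on no measured spread between lines. Dcn (decorin) gave 1.45 in NS21, 7.79 in NS195R, 0.161 in NSEB5-2C, against 56.8 in Mixture. Lum (lumican) gave 0.462 in NS21 and 5.47 in NS195R, against 8.58 in Mixture, and was not well above background in NSEB5-2C. Prelp gave 0.176 in NS21 and 2.60 in NS195R, against 12.3 in Mixture, and was not well above background in NSEB5-2C either. All 3 proteoglycans were highest in NS195R among the lines and lowest in NSEB5-2C, at least 199-fold apart for Lum and at least 94.9-fold for Prelp.

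**Figure D4:**
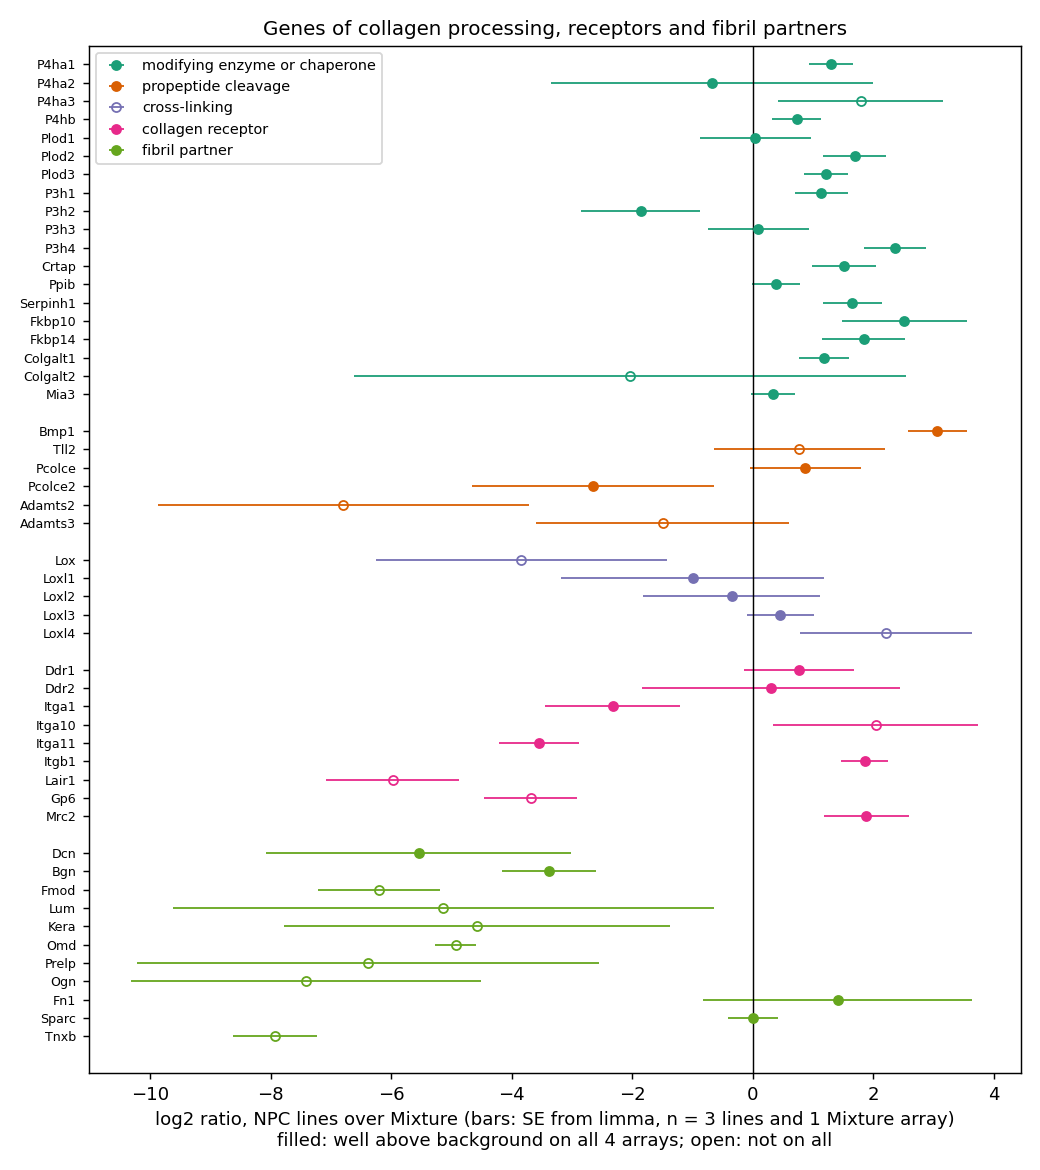
Log2 ratio of the NPC lines to Mixture for the 50 tested genes of collagen processing, receptors and fibril partners, with SE bars from limma (n = 3 lines and 1 Mixture array); filled points were well above background on all 4 arrays. Of the 19 modifying enzymes and chaperones, 14 lie above Mixture in all 3 lines, and 9 of the 11 fibril partners lie below it in all 3, the lowest being Tnxb at -7.92.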

How the data were processed

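Each of 4 samples was hybridised to 1 array, all on 1 slide and from 1 scan, so that neither could be tested as a batch. Per the file headers, version 9.5.3.1 of Agilent Feature Extraction read the spot intensity and subtracted background. The deposited value table equalled that processed intensity at all 45018 features, so it gave no other scale. For the probes, the sources used here do not give a genome build.

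From the log2 of the processed signal, the percentile 75 of all non-control spots on the same array was subtracted. Outlier-flagged spots were left out, 245 repeated probes of 10 spots were averaged, and 19 probes that lacked a value on some array were dropped. Repeated probes within an array had a median SD of 0.0734 to 0.117 on the log2 scale. Symbols followed the GRCm38.p6 gene table through the transcript, symbol or synonym, and 8440 probes kept their file name for the gene. The probe with the highest mean was kept per gene. Of the 40 collagens, 28 had several probes, and 22 had several that were well above background on some array. Of these 22, 0 had probes at least 1.5-fold apart from Mixture in opposite directions. That rule does not compare sizes, which differed between probes for Col4a4 and Col22a1, among others. Where every array of a group was not well above background, a ratio is a bound against the dimmest signal well above background on that array or the probe's own, whichever is higher. Counts of genes 2-fold from both other lines took signals not well above background as read, without raising them to that bound.

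The lines (n = 3) were compared with Mixture (n = 1) with limma 3.58.1 in R 4.3.3 (two-sided, Benjamini-Hochberg over 19819 genes, adjusted p under 0.05). Mixture was assumed to vary like the lines, with 2 residual and 1.33 prior degrees of freedom. Where no line was well above background, the spread in the fit is between signals that were not measured. On simulated data with a small part of the genes changed, the fit recovered the sizes put in but called none at an adjusted p under 0.05. In the real data 8.91% of tested genes were called lower and 0.944% higher, so that the simulation does not measure the power there. A gene not called may still differ. Differences between lines have sizes only. The collagens, the pathway and marker lists and the rule for naming genes were chosen with earlier results of these data known. The rule named all fibrillar and Col4 genes. It also named other collagens that passed the test, lay 4-fold apart between lines or had only a bound, and, per pathway role, called genes and the 3 with the largest line difference. Remaining collagens and a few pathway and marker genes were named after their values were seen. Alternatives covered normexp (offset 50), quantile and median scaling, dim-probe filters, the mean of probes, an intensity trend and leaving out each line.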

Additional observations from a re-analysis of the deposited data

Results flagged for a closer look

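Lines on opposite sides of Mixture, each by 4-fold or more, were found for 3 of 40 collagens and for 1.26% of all tested genes. Each line has 1 array, so the difference between lines was not tested. Relative to Mixture, Col7a1 had a log2 value of 4.78 in NSEB5-2C and -2.04 in NS195R, a gap of 6.82. For Col8a2 the log2 ratio was 2.81 in NSEB5-2C and at most -4.15 in NS195R, a gap of at least 6.96, because NS195R was not well above background. Col9a3 was the reverse, with 3.80 in NS195R and at most -3.61 in NSEB5-2C, a gap of at least 7.41, because NSEB5-2C was not well above background.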

How the results depend on the processing

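The 3 collagens called lower became 6 with the mean of probes and 0 among genes measured on all arrays or without any 1 line (lowest 0, highest 0). At an unadjusted p under 0.05, leaving out a line gave between 6 and 15. Col4a3, Col10a1 and Col14a1 were not measured on all arrays, so that their calls could not recur in that setting. Pathway genes called higher numbered 4 with normexp, 1 with quantile scaling and 2 with an intensity trend, against 0. Those called lower numbered 5 with normexp, and 0 on all arrays or without any 1 line, against 2. Omd and Tnxb were not measured on all arrays either, so that their calls could not recur there. Between lines, normexp gave 4 below in NS21, 5 above and 4 below in NS195R, and 1 below in NSEB5-2C. The 21 collagens measured on all arrays gave 5 below in NS21, 4 above in NS195R and 7 above in NSEB5-2C. In settings chosen after seeing the data, 4-fold line gaps numbered 9 of 40 with normexp (22.5%, against 8.28% of all tested genes). Among collagens measured on all arrays they numbered 12 of 21 (57.1%, against 16.3% of all genes measured there). Genes below Mixture in all lines numbered 14 of 40 with median scaling (35%, against 21.2%) and 10 of 21 on all arrays (47.6%, against 17.1%). Genes above it in all lines numbered 3 with normexp, 3 with quantile scaling and 4 with median scaling, against 1. Fewer genes were tested on all arrays, and beyond this and the limits above the cause was not tested. For the counts of limma calls by setting, the share of all tested genes called is not given here. Log2 ratios turned sign for Col4a1 with quantile scaling (-0.27) and the mean of probes (-0.16), for Col9a3 with normexp (0.29), and for Col12a1 with normexp (0.14), quantile (0.033) and median scaling (0.074). Col19a1 turned with normexp (0.047), quantile (0.12) and median scaling (0.028). Median scaling also turned Col4a2 (0.62), Col5a1 (0.60), Col16a1 (0.70) and Col18a1 (0.55). Leaving out 1 line at a time gave -0.10 to 0.25 for Col4a1, -0.39 to 0.27 for Col4a2, -0.51 to 1.04 for Col4a6, -0.59 to 0.15 for Col5a1, -3.24 to 0.30 for Col8a2, -3.42 to 0.28 for Col9a3, -2.05 to 0.62 for Col12a1, -0.58 to 0.34 for Col16a1 and -0.95 to 0.89 for Col18a1. Median scaling moved the median ratio of genes on all arrays to 1.46. Signals not well above background limit dim collagens to bounds. No paired analysis was possible because the labels carry no replicate numbers that pair a line with Mixture.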
